A study of Mus musculus with 2 samples.

Results

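Expression of 8 genes of the Atf4 arm of the integrated stress response was followed in immune cells of the mouse colon lamina propria. The genes were chosen by symbol: Atf4 and 7 of its known targets or partners, Atf5, Ddit3, Ddit4, Trib3, Asns, Chac1 and Sesn2. They took 9 of the 32285 rows of the count matrices, because Ddit3 has 2 gene identifiers there, and the second identifier held 0 UMIs in both libraries. The data were 2 single-cell libraries, 1 titled Runx3_fl and 1 titled Runx3, from colon cells labelled as CD11b positive. The study set RUNX3 fl/fl mice against littermates of the same floxed genotype that also carried Lyz2-Cre, a recombinase driven by the lysozyme promoter and therefore active in macrophages, monocytes and neutrophils but not, as a rule, in lymphocytes. Each library was a pool of male mice per the study, and no colitis or butyrate treatment is stated for these samples. The titles do not say which library carried Cre, so no genotype was assigned and the libraries are named by title. With 1 library per group there was no replicate check and no test of any difference.

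The integrated stress response is the pathway by which cells slow protein synthesis when amino acids run short, when unfolded protein collects in the endoplasmic reticulum, or when haem is lacking or double-stranded RNA is present. Kinases specific to each stress phosphorylate the initiation factor eIF2, which lowers translation in general but raises that of the Atf4 mRNA, so that part of the regulation of Atf4 is not visible in RNA. ATF4 protein then turns on genes for amino acid supply, glutathione turnover, growth restraint and, under prolonged stress, cell death. Plasma cells, which secrete antibody in bulk, are known for a large endoplasmic reticulum and a high demand for amino acids.

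Cells were placed in 7 classes by the UMIs of marker genes, UMI being the tag that counts 1 captured RNA molecule: macrophages by Csf1r and C1qa, conventional dendritic cells (cDC) by Flt3, neutrophils by Csf3r, NK cells by Ncr1, T cells by Cd3e, B cells by Cd79a and plasma cells by Mzb1 with Jchain. Levels are the UMIs of a gene per 1000000 UMIs of a class (CPM), with 95% exact Poisson intervals that cover counting error only. The Runx3_fl library kept 11885 cells and the Runx3 library kept 8167, and the classes held from 101 to 2824 cells. The median depth of kept cells was lower in the Runx3 library in 5 of the 7 classes, the exceptions being neutrophils and NK cells. A gene was compared between the libraries in a class where at least 10 UMIs were counted over both.

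Most check markers that the gates did not use were detected in at least 25% of the cells of their class, 7 and 8 of 8 in macrophages, 5 and 4 of 7 in cDC, 4 and 3 of 5 in neutrophils and all or all but 1 in the other classes. The class names are those of the gates, and some classes also carried markers of others. In neutrophils 5 of 8 macrophage markers were detected in at least 25% of the cells in both libraries, with Cd14 in 68.1% and 57.1%, and the neutrophil gene S100a8 in 43.7% and 70.7%. S100a8 was also found in 50.4% to 60.9% of the cells of the other classes of the Runx3 library. A further 264 and 436 cells met the macrophage and the neutrophil gates and were left out. Pax5, the B cell identity factor that plasma cells as a rule lack, was found in 3.82% and 52.3% of plasma cells, and the B cell surface gene Ms4a1 in 8.02% and 45.0%. T cells differed in the cytotoxic genes Gzma, in 62.0% and 9.64% of cells, and Prf1, in 35.5% and 4.95%, in the homing receptor gene Ccr7, in 11.7% and 42.4%, and in Cd3d, in 94.7% and 67.4%. A UMI of the proliferation genes Mki67 or Top2a was found in 1747 of 2824 and 82 of 384 T cells. In plasma cells it was found in 206 of 262 and 55 of 220. The part of these differences in the results for plasma cells, T cells and neutrophils was not tested. The libraries stood apart beyond their titles. Xist, the RNA of the inactive X chromosome of females, stood at 110 to 343 CPM in the classes of the Runx3_fl library and at 0 to 0.387 CPM in the other, while the Y-linked Ddx3y was at 48.7 to 341 CPM in every class of both. The Runx3_fl library therefore held RNA of both kinds although the study states male mice. The libraries shared 37 cell barcodes. Itgam, which encodes CD11b, was detected in 62.9% and 62.0% of macrophages, 14.7% and 9.47% of B cells and 41.2% and 9.09% of plasma cells. S100a8, a calprotectin gene, was at 1690 CPM in neutrophils of the Runx3_fl library and at 20400 CPM in those of the other. In plasma cells Sdc1, the syndecan that marks them, was detected in 72.5% and 32.3% of cells but stood at 104 and 170 CPM. Tnfrsf17, the plasma cell survival receptor, was detected in 71.8% and 21.8% and stood at 113 and 67.4 CPM. The median depth of plasma cells was 23839 and 7744 UMIs, which bears on the detected shares. Runx3 itself, the gene targeted in the study, was at 158 CPM in macrophages of the Runx3_fl library and at 236 CPM in those labelled Runx3. Reads at the 3′ end can lie outside a deleted part, so these values do not check the labels.

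Atf4, the transcription factor at the head of the group, lies at chr15:80255184-80257541 on the plus strand (GRCm38, GENCODE M21) and had the most UMIs of the members in every class, on a scale of 3′ tags that is not divided by gene length. In the Runx3_fl library it stood at 331 CPM in plasma cells, 298 in NK cells, 275 in cDC, 261 in B cells, 258 in neutrophils, 249 in macrophages and 240.1 in T cells. In the Runx3 library it stood at 496 CPM in B cells, 495.5 in macrophages, 472 in neutrophils, 443 in T cells, 432 in NK cells, 431 in cDC and 389.9 in plasma cells. Atf4 was thus expressed in all 7 classes at much the same level, the highest class exceeding the lowest 1.38-fold in the Runx3_fl library and 1.27-fold in the other. The order of the classes was not the same in the 2 libraries, and plasma cells led in the Runx3_fl library and came last in the other. Immunoglobulin transcripts took 16.3% and 26.8% of plasma cell UMIs and at most 0.516% in the other classes. With these left out of the totals plasma cells stood highest in both libraries, at 395.5 CPM (378.6 to 412.9) and 532.9 CPM (500.5 to 566.9), although the second interval overlapped that of B cells at 498.1 CPM (480.4 to 516.3). The last place of plasma cells in the Runx3 library therefore depended on the totals used. It also depended on how cells were weighted. With immunoglobulin counted, NK cells were lowest there with cells thinned to 2000 UMIs and as the mean share over cells. The same held without the 10% of cells with the most UMIs. With all UMIs in the totals, intervals of neighbouring classes overlapped at every step of the order in the Runx3 library. In the Runx3_fl library the steps from plasma to NK cells and from NK cells to cDC were wider than the counting error.

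The Atf4 level was higher in the Runx3 library in 7 of 7 classes, from 1.18-fold in plasma cells to 1.98-fold in macrophages. Macrophages had 784 Atf4 UMIs in the Runx3_fl library and 1073 in the Runx3 library, a log2 ratio of 0.99 (interval 0.86 to 1.13), where ratios are of CPM plus 1 and their intervals are exact binomial intervals of the UMI ratio. The ratio was 0.88 in T cells, 0.92 in B cells and 0.87 in neutrophils. It was smaller in cDC at 0.64, in NK cells at 0.53 and in plasma cells at 0.23 (0.13 to 0.34). In macrophages 15.7% of all genes compared had a higher ratio than Atf4. The macrophage median over all genes was itself 0.25, and centred on it the Atf4 ratio was 0.74. Fractions were taken in macrophages by Ly6c2, in T cells by Cd4 and Cd8a, and in neutrophils by Camp or Ltf. In cDC they were taken by Xcr1, Cd209a and Ccr7 with Fscn1, and in every class by the proliferation genes Mki67 and Top2a. Atf4 was higher in the Runx3 library in every fraction. The intervals of the libraries overlapped in cDC with Xcr1, at 287.0 CPM (273.8 to 300.7) and 348.0 CPM (297.4 to 404.8). They also overlapped in plasma cells with Mki67 or Top2a, at 328.8 and 348.2 CPM, and in those without, at 347.7 and 419.7 CPM. The exception in direction was plasma cells that also had Xbp1 and Tnfrsf17 UMIs, 188 and 48 cells, with 333 CPM and 308 CPM. Their log2 ratio was -0.11 (-0.27 to 0.05) against a median of -0.67 over all genes. Plasma cells without a UMI of the B cell genes Pax5 or Ms4a1, 241 and 96 cells, had 321.2 and 373.5 CPM, a log2 ratio of 0.22 (0.07 to 0.36) against a median of -0.58.

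After each cell was thinned to 2000 UMIs, an Atf4 UMI was found in 36.0% to 49.0% of the cells of a class in the Runx3_fl library and in 54.3% to 58.8% in the Runx3 library. The ranges did not overlap. In macrophages the shares were 44.1% (37.8% to 50.5%) and 54.3% (47.5% to 61.0%). Unthinned, 84.9% and 84.5% of macrophages had an Atf4 UMI, at median depths of 12850 and 6312 UMIs. Bins of the mitochondrial share of a cell, a sign of damaged cells, gave a median Atf4 level of 256 CPM over 19 bins of a class in the Runx3_fl library and 458 CPM over 20 bins in the Runx3 library.

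**Figure D1:**
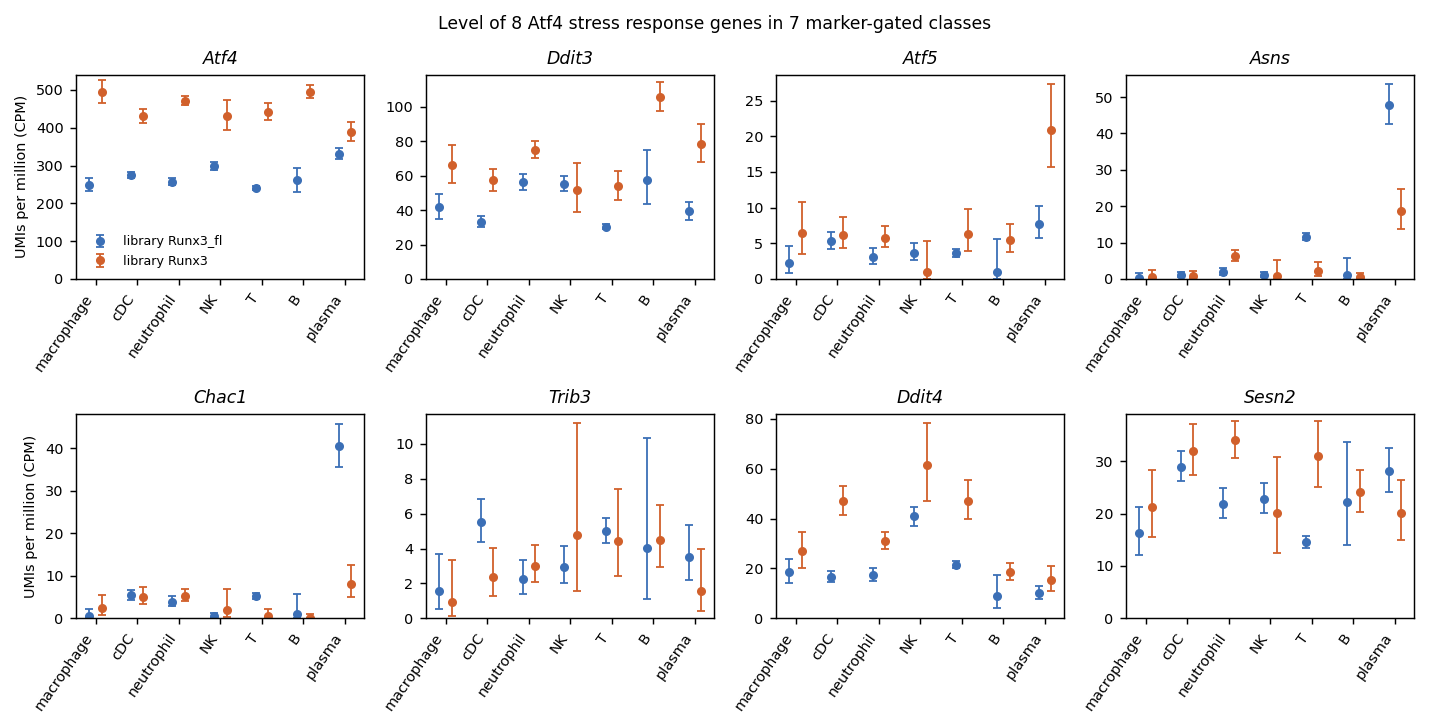
Level of each of the 8 genes in CPM (linear axes from 0) in 7 marker-gated classes, in the library titled Runx3_fl (blue) and the library titled Runx3 (orange). Points are sums over the cells of a class in 1 library and bars are 95% Poisson intervals of counting error. Atf4 lies between 240.1 and 496 CPM in every class, while Asns and Chac1 reach 47.8 and 40.5 CPM in plasma cells of the Runx3_fl library and stay under 12 CPM elsewhere in that library.

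Ddit3, which encodes the transcription factor CHOP and is linked to death of cells under lasting stress, was detected in every class. In the Runx3_fl library its level ran from 30.5 CPM in T cells to 57.7 in B cells, and in the Runx3 library from 51.7 CPM in NK cells to 106 in B cells. Macrophages had 41.7 and 66.0 CPM, a log2 ratio of 0.65 (0.31 to 1.02). The ratio was 0.98 in plasma cells, 0.87 in B cells, 0.80 in T cells, 0.76 in cDC and 0.41 in neutrophils. Ddit3 was therefore higher in 6 of 7 classes beyond counting error, and in NK cells the ratio of -0.09 (-0.52 to 0.31) was not. In neutrophils it lay near the median over all genes of 0.34, and 44.5% of genes had a higher ratio. That share was 27.4% in macrophages and 12.5% to 18.6% in B cells, plasma cells, cDC and T cells. In neutrophils with S100a8 and S100a9 UMIs the direction turned, with 108 CPM in the Runx3_fl library and 67.1 in the other. The log2 ratio there was -0.68 (-0.92 to -0.46) against a median of 0.80 over all genes. Ddit3 lies at chr10:127290774-127296288 on the plus strand (GRCm38, GENCODE M21) and shares this stretch with its second identifier on the same strand and with Mars, the methionyl-tRNA synthetase, on the opposite one.

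Atf5, a transcription factor related to ATF4 whose mRNA is also translated selectively under stress, lies at chr7:44812256-44816658 on the minus strand and was rare. It was at 1.01 to 7.72 CPM in the Runx3_fl library and at 0.958 to 20.9 CPM in the Runx3 library. Plasma cells were highest in both, although in the Runx3_fl library their interval overlapped that of cDC at 5.30 CPM. Plasma cells had 48 and 54 UMIs, a log2 ratio of 1.33 (0.85 to 2.03). The macrophage ratio of 1.21 rested on 7 and 14 UMIs, and its interval ran from 0.13 to 3.09. In NK cells 41 UMIs stood against 1, a ratio of -1.25 with an interval from -7.28 to 0.62, so that no direction could be read there.

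Asns (chr6:7675169-7693254, minus strand) encodes asparagine synthetase, which makes asparagine from aspartate and glutamine, and was not expressed evenly. Plasma cells had 47.8 CPM in the Runx3_fl library and 18.6 CPM in the Runx3 library. T cells had 11.7 and 2.21 CPM, and neutrophils 1.94 and 6.35 CPM. In macrophages 1 UMI was counted in each library, and cDC, NK and B cells were at 0.664 to 1.17 CPM. Asns was thus lower in the Runx3 library in plasma cells, with a log2 ratio of -1.32 (-1.83 to -0.92), and in T cells, with -1.98 (-3.72 to -1.34) on 472 and 7 UMIs. In neutrophils it was higher, with 1.32 (0.97 to 2.50). An Asns UMI was found in 43.5% of plasma cells of the Runx3_fl library and 12.7% of those of the other, against 0.398% and 0.369% of macrophages. At 2000 UMIs per cell the plasma shares were 7.45% (4.55% to 11.4%) and 2.58% (0.842% to 5.91%), and those intervals overlapped. Median depth was 23839 UMIs in plasma cells of the Runx3_fl library and 7744 in those of the other, and in macrophages 12850 and 6312.

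Within T cells of the Runx3_fl library, Asns was at 14.1 CPM in cells with Mki67 or Top2a and 5.00 CPM in cells without. In the Runx3 library, where a smaller share of T cells had these UMIs, it was at 4.91 and 0.933 CPM, on 5 and 2 UMIs. Chac1 was at 6.67 and 1.48 CPM in these fractions of the Runx3_fl library. The part of this split in the T cell ratios was not tested. In Cd4 and Cd8a cells of the Runx3_fl library Asns was at 11.3 and 13.8 CPM. Of its 472 UMIs, 23.9% came from the 1% of T cells with the most, and the level without those cells was 9.03 CPM. Of the 7 UMIs in T cells of the Runx3 library all came from 4 cells. T cells that also had Cd3d and Cd3g UMIs gave 461 and 0 Asns UMIs over 2526 and 182 cells. In neutrophils of the Runx3 library, Asns was at 12.9 CPM in cells with a UMI of Camp or Ltf, secondary granule genes made early in neutrophil development, and at 1.28 CPM in cells without. In the Runx3_fl library these fractions were at 1.52 and 1.97 CPM. With the gate narrowed to S100a8 and S100a9 cells the neutrophil ratio was 0.90 against a median of 0.80 over all genes, and with cells of several gates kept it was 0.07.

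Chac1 (chr2:119351229-119354381, plus strand), whose product breaks down glutathione, followed the same pattern as Asns in plasma and T cells. Plasma cells had 40.5 CPM in the Runx3_fl library and 8.13 CPM in the Runx3 library, a log2 ratio of -2.19 (-3.03 to -1.67). T cells had 5.29 and 0.633 CPM on 214 and 2 UMIs, a ratio of -1.95 (-6.12 to -1.19). In cDC the levels were 5.44 and 5.09 CPM and in neutrophils 3.89 and 5.35 CPM, with intervals of the ratio that spanned 0. Macrophages held 2 and 5 UMIs, too few to be compared. Under narrower plasma gates Chac1 stayed below all genes and Asns came close to them. Among cells with Xbp1 and Tnfrsf17 the ratio was -2.25 (-3.47 to -1.48) for Chac1 and -0.78 (-1.38 to -0.27) for Asns, against the median of -0.67 for all genes. Among cells without a UMI of Pax5 or Ms4a1 it was -1.48 (-2.3 to -0.87) for Chac1 and -0.69 (-1.22 to -0.23) for Asns, against a median of -0.58. With immunoglobulin left out of the totals the ratios were -2.03 for Chac1 and -1.14 for Asns.

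Trib3 (chr2:152337422-152344032, minus strand), a pseudokinase that restrains ATF4 in a feedback loop, was at 0.923 to 5.51 CPM throughout. In cDC it was at 5.51 and 2.36 CPM, a log2 ratio of -0.95 (-2.19 to -0.37). The interval spanned 0 in the other 5 classes compared, and macrophages held 5 and 2 UMIs.

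The promoters were searched for the C/EBP-ATF response element, the composite site that ATF4 binds with C/EBP partners, written TGATGNAA and read on both strands from 250 bases before to 50 bases after each RefSeq start (GRCm38.p6). All 8 genes matched a promoter in that table, Atf5 with 2. The letters were present for Asns, Chac1 and Trib3 and absent from the windows of Atf4, Atf5, Ddit3, Ddit4 and Sesn2, and 3.97% of 32851 promoters held them. The ratio was positive in 1 of 5 classes compared for Asns, 1 of 4 for Chac1 and 3 of 6 for Trib3, and in 7 of 7 for Atf4 and Ddit4, 6 of 7 for Atf5 and Ddit3 and 5 of 7 for Sesn2. Nothing is drawn from the letters about these ratios, and the windows are shown to place the matches. The match is in capitals, on the strand of the gene. Distances are to the RefSeq starts, which are not the GENCODE gene ends given above. The Asns window therefore lies within the GENCODE gene, and the Trib3 window lies mostly beyond the GENCODE gene end at 152344032.
Asns, chr6:7693215-7693242, minus strand, 23 bases before the start: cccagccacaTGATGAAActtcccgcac
Chac1, chr2:119351039-119351066, plus strand, 193 bases before the start, opposite orientation: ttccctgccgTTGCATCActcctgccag
Trib3, chr2:152344029-152344056, minus strand, 14 bases after the start, opposite orientation: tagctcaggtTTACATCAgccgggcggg
These windows are descriptions of sequence, and whether any factor was bound there in these cells was not measured.

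Ddit4 (chr10:59949669-59951834, minus strand), which encodes REDD1, an inhibitor of the growth kinase mTORC1, was highest in NK cells of both libraries, at 40.9 and 61.3 CPM. In the Runx3 library the NK interval overlapped that of T cells at 47.1 CPM. The lowest class was B cells at 9.10 CPM in the Runx3_fl library and plasma cells at 15.5 CPM in the Runx3 library. Macrophages had 18.5 and 26.8 CPM on 58 UMIs each, a log2 ratio of 0.51 whose interval (-0.01 to 1.09) touched 0. The ratio was positive in 7 of 7 classes and above counting error in 6, with 1.45 (1.24 to 1.76) in cDC and 1.10 (0.88 to 1.39) in T cells as the highest. Ddit4 is also a known glucocorticoid target.

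Sesn2, a leucine sensor that also holds back mTORC1, was at 14.6 to 29.0 CPM in the Runx3_fl library and 20.1 to 34.0 CPM in the Runx3 library. T cells had 14.6 and 31.0 CPM, a log2 ratio of 1.04 (0.77 to 1.40), and neutrophils 21.9 and 34.0 CPM, a ratio of 0.61 (0.39 to 0.88). Plasma cells had 28.1 and 20.1 CPM, a ratio of -0.46 (-0.96 to -0.03). The plasma interval spanned 0 with immunoglobulin left out of the totals, at -0.28 (-0.76 to 0.17), in cells with Xbp1 and Tnfrsf17, at -0.59 (-1.34 to 0.04), and in cells without a UMI of Pax5 or Ms4a1, at -0.39 (-1.04 to 0.18). In macrophages, cDC, NK and B cells the interval spanned 0. Sesn2 overlaps Gm12981 on the same strand (chr4:132492032-132510501, minus), so reads of the pair could be split by the counting.

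Few members passed a 2-fold difference, and the members' counts were read against all genes compared in the same class. In macrophages 5 of the 8 members were compared and 1, Atf5, was at least 2-fold higher in the Runx3 library (15.4% of all 11519 genes) and 0 at least 2-fold lower (3.59% of all). Atf4 in macrophages fell just short of that line at 1.98-fold. In cDC 1 of 8 was higher, Ddit4 (9.33% of all genes), and 0 lower (1.87%). In neutrophils 1 of 8 was higher, Asns (13.5%), and 0 lower (2.54%). In NK cells 0 of 7 were higher (7.51%) and 1 was lower, Atf5 (5.86%). In T cells 2 of 8 were higher, Ddit4 and Sesn2 (13.5%), and 2 were lower, Asns and Chac1 (7.23%). In B cells 1 of 6 was higher, Atf5 on 1 and 33 UMIs (10.5%), and 0 lower (3.59%). In plasma cells 1 of 8 was higher, Atf5 (14.6%), and 2 were lower, Asns and Chac1 (16.2%). With 5 to 8 genes per class such counts lie near the background. The median ratio of the members was 0.65 in macrophages against 0.25 over all genes, 0.69 against 0.34 in neutrophils, 0.73 against 0.10 in T cells and 0.89 against 0.10 in B cells. It did not stand above the median of all genes in cDC, at 0.16 against 0.17, in NK cells, at -0.08 against 0.05, or in plasma cells, at -0.11 against -0.08. These medians were not over the same members. Trib3, Asns and Chac1 were too rare to compare in macrophages, Asns and Chac1 in B cells and Chac1 in NK cells. Those 3 had ratios of -0.95, -0.185 and -0.08 in cDC, -0.14, -1.98 and -1.95 in T cells and -0.83, -1.32 and -2.19 in plasma cells. In neutrophils they were positive, at 0.30, 1.32 and 0.38. The medians are therefore not compared between classes.

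**Figure D2:**
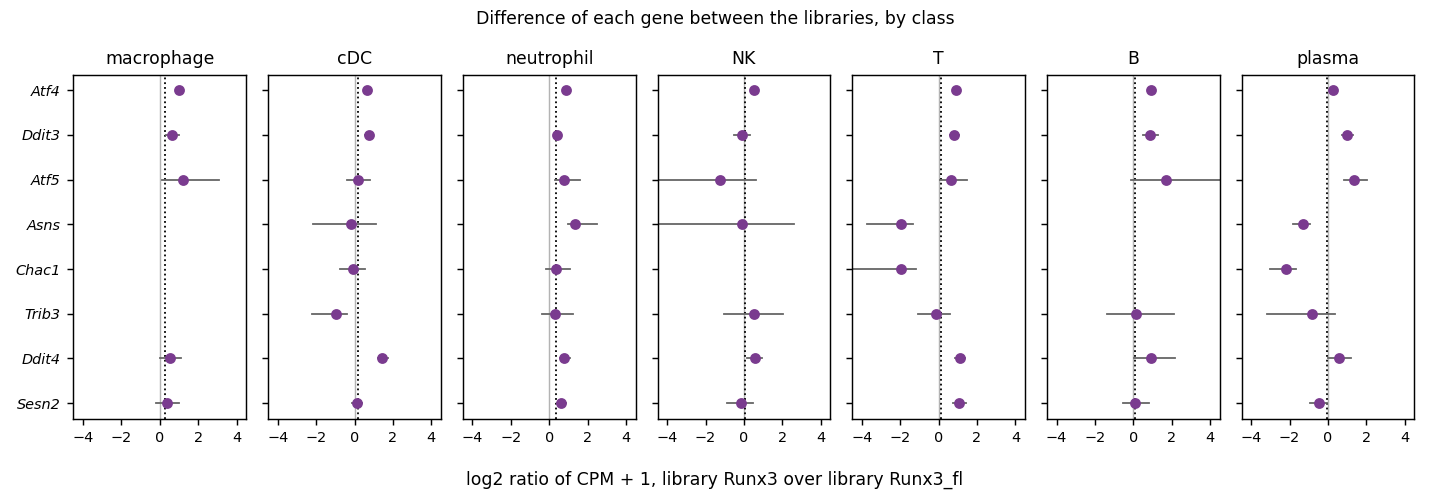
Log2 ratio of CPM plus 1, Runx3 over Runx3_fl library, for each gene in each class with at least 10 UMIs. Points are ratios, horizontal lines are 95% counting intervals cut at the edge of the panel, the grey line marks 0 and the dotted line the median of all genes compared. Atf4 is to the right of 0 in all 7 classes, from 0.23 in plasma cells to 0.99 in macrophages, and Asns and Chac1 are to the left of 0 in T and plasma cells.

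Across the 14 sums of a class and a library the likeness of the members to Atf4 depended on the totals used. The correlation with Atf4 on the log2 scale was 0.69 for Ddit3, 0.50 for Sesn2, 0.49 for Ddit4 and 0.40 for Atf5, and -0.08 for Asns, -0.08 for Chac1 and -0.16 for Trib3. For the mean of the 7 other members it was 0.28 over 14 sums, 0.65 over the 7 sums of the Runx3_fl library and -0.65 over those of the Runx3 library. The sums of 1 library share its depth and handling, and with all UMIs in the totals Ddit3 gave 0.12 and 0.35 within the Runx3_fl and Runx3 libraries. With immunoglobulin left out Ddit3 gave 0.74 over the 14 sums, 0.245 within the Runx3_fl library and 0.885 within the Runx3 library. Ddit4 then gave 0.415, -0.14 and -0.93. The values within a library thus also depended on the totals. With immunoglobulin left out of the totals the values for the mean of the 7 were 0.48, 0.79 and 0.43, so that the sign within the Runx3 library turned, and those for Asns and Chac1 over 14 sums were 0.17 and 0.13. Plasma cells had the highest levels of Asns and Chac1 in both libraries. For Chac1 in the Runx3 library their interval (5.03 to 12.4 CPM) overlapped that of neutrophils (4.07 to 6.90 CPM).

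**Figure D3:**
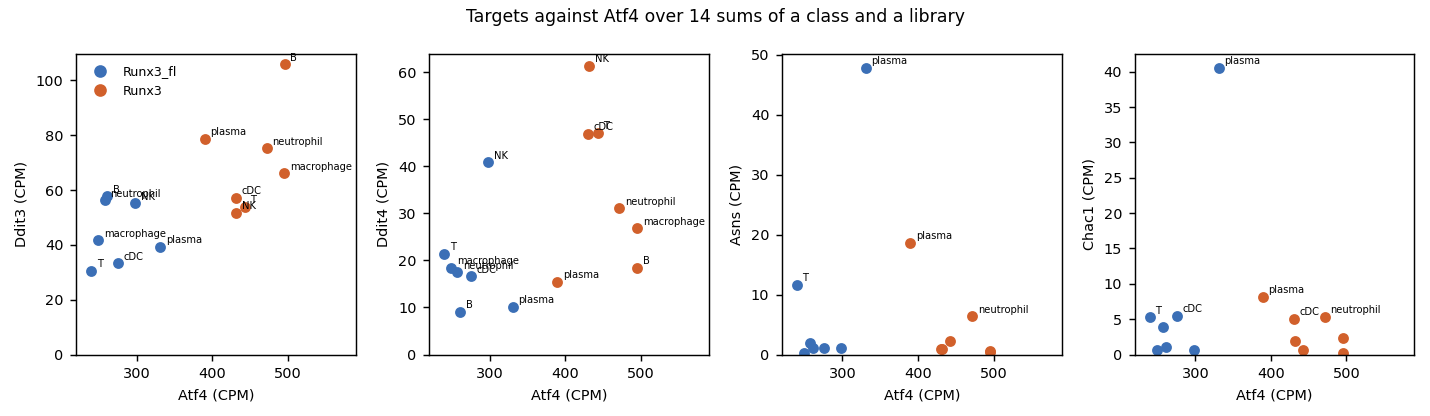
CPM of Ddit3, Ddit4, Asns and Chac1 (y axes) against CPM of Atf4 (x axis, from 220 upwards) in 14 sums of a class and a library, blue for the Runx3_fl library and orange for Runx3. Class names are printed at the points, except for Asns and Chac1 sums under 4.5 CPM. The Atf4 levels of the 2 libraries do not overlap, at 240.1 to 331 CPM and 389.9 to 496 CPM, and Asns is led by plasma cells in both.

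Within classes, cells with an Atf4 UMI were set against cells without one, each thinned to 2000 UMIs. The summed level of the 7 targets in Atf4-positive over Atf4-negative cells was 0.971 to 2.73, with a median of 1.2 over the 14 sums, and 12 of 14 intervals included 1. The highest value, 2.73 (1.37 to 5.75) in macrophages of the Runx3_fl library, rested on 28 and 13 target UMIs. It was 0.817 when cells were thinned to 1000 UMIs and 1.11 when they were thinned to 4000, so it did not hold. The other interval above 1 was that of NK cells of the Runx3 library, 2.69 (1.24 to 6.45), on 29 and 9 UMIs, and it was 1.02 at 1000 UMIs and 1.75 at 4000. In macrophages of the Runx3 library the value was 0.971 (0.555 to 1.71). The ratio was above 1 in 12 of the 14 sums, and 0 intervals lay below 1. The median of the same ratio over all genes with at least 20 UMIs was 0.986 to 1.04. The share of those genes with a higher ratio than the targets ran from 0.43% in Runx3_fl macrophages to 53.5% in Runx3 macrophages. Among the sums above 1 it reached 45.5% in Runx3_fl neutrophils and 40.8% in Runx3 cDC. Gene by gene, 7 of 98 pairs of a gene and a sum had an interval above 1. They were Ddit4 in Runx3_fl macrophages and in NK, T and B cells of the Runx3 library, and Sesn2 in the last. The others were Trib3 in T cells and Ddit3 in cDC of the Runx3_fl library, the latter at 2.22 (1.30 to 3.84). The 1 interval below 1 was that of Ddit4 in Runx3 macrophages, at 0.253 (0.0447 to 0.981). Some of the 98 pairs held no UMI, and the count has no share over all genes beside it, so nothing is drawn from it.

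The genes whose log2 level ran most like that of Atf4 over the 14 sums, among 4978 genes, were Snhg9 (r = 0.94), mt-Atp8 (0.90), Cdk8 (0.89), Gm11290 (0.89) and Cmss1 (0.87). None of these was a member. For the mean of the other members the closest of 9179 genes were Gm42047 (0.87), Agfg2, Cd2bp2, Ss18l2 and Mrpl53. These are descriptions over sums that share 2 libraries.

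The wider pathway was described through gene lists. Among 16 genes of eIF2 control, 1 in macrophages was at least 2-fold higher in the Runx3 library, Eif2ak3, which encodes the kinase PERK, at 17.2 and 48.0 CPM, where 15.4% of all genes passed that line. In plasma cells 5 of these 16 were at least 2-fold lower (16.2% of all genes), among them Eif2s1 and Eif2s2, subunits of eIF2 itself, with log2 ratios of -1.18 and -1.40. Ppp1r15a, which directs the phosphatase back to eIF2, was higher with 2.03 (14.6% of all genes were at least 2-fold higher). The list median in plasma cells was -0.51 against -0.08 over all genes, and -0.32 against 0.11 with immunoglobulin left out of the totals. It was -0.78 against -0.67 in cells with Xbp1 and Tnfrsf17, and -0.79 against -0.58 in cells without a UMI of Pax5 or Ms4a1. Of 7 transcription factors linked to ATF4, 4 were at least 2-fold higher in T cells (13.5% of all genes), 4 in plasma cells (14.6%) and 3 in cDC (9.33%). It was 2 in B cells (10.5%), 1 in macrophages (15.4%), 1 in NK cells (7.51%) and 0 in neutrophils (13.5%). The medians were 1.06 against 0.10 over all genes in T cells, 1.16 against -0.08 in plasma cells and 0.93 against 0.17 in cDC. In plasma cells with Xbp1 and Tnfrsf17, 2 of 6 were higher, with a median of 0.31 against -0.67. In those without a UMI of Pax5 or Ms4a1, 3 of 7 were higher, with 0.63 against -0.58. With immunoglobulin left out of the totals 5 of 7 were higher, with 1.37 against 0.11. Atf3, a stress-induced repressor, was at 49.0 and 150.0 CPM in plasma cells. In macrophages Cebpb, a C/EBP partner of ATF4, had 525 and 1070 CPM, a log2 ratio of 1.02.

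Both lists of amino acid use had medians below that of all genes in every class except NK cells. The medians were lowest in plasma cells, T cells and cDC. Of 13 tRNA synthetases, which charge tRNAs with amino acids, 8 were at least 2-fold lower in plasma cells of the Runx3 library (16.2% of all genes), and all 13 had a negative ratio, with a median of -1.12 against -0.08 over all genes. Wars, the tryptophanyl enzyme, was at 161 and 26.7 CPM, and Gars, the glycyl enzyme, at 168 and 46.8 CPM. In T cells the list's median was -0.71 against 0.10, and 12 of 13 were negative, with Eprs as the exception at 145 and 248 CPM. In cDC the median was -0.47 against 0.17, and 1 of 13 had a positive ratio. Of the 20 genes of amino acid synthesis and transport compared in plasma cells, 9 were at least 2-fold lower (16.2% of all genes). At least 2-fold higher was 1, Cth (14.6%), and 8 had a positive ratio. Among the 9 lower were Psat1 and Phgdh of serine synthesis, with log2 ratios of -2.33 and -1.88, and Mthfd2 of mitochondrial folate metabolism, with -1.31. In plasma cells without a UMI of Pax5 or Ms4a1 the medians were -1.33 for the tRNA synthetases and -0.89 for the amino acid list, against -0.58 over all genes. In cDC the amino acid list had a median of -0.20 against 0.17. The tRNA synthetase and amino acid medians were -0.02 and 0.32 in neutrophils against 0.34, and -0.04 and 0.001 in B cells against 0.10. In NK cells they were 0.14 and 0.33 against 0.05. In macrophages both lists lay near the background, with medians of 0.04 and 0.23 against 0.25 over all genes. The exceptions there were the cystine transporter gene Slc7a11, at 2380 CPM in the Runx3_fl library and 901 CPM in the Runx3 library, a log2 ratio of -1.40 (-1.47 to -1.33), and the leucine transporter gene Slc7a5, with a log2 ratio of 1.03. Of the 11 other ATF4-linked targets compared in macrophages 2 were at least 2-fold higher (15.4% of all genes), with a list median of 0.17 against 0.25 over all genes. Gdf15, a secreted stress signal, was at 40.1 and 121 CPM and Bbc3, a pro-apoptotic gene, at 16.9 and 45.3 CPM.

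The other arms of the unfolded protein response, read through 16 ATF6 and XBP1 genes, had 11 members at least 2-fold lower in plasma cells (16.2% of all genes), with a median of -1.44. The median was -1.08 in cells without a UMI of Pax5 or Ms4a1, against -0.58 over all genes, and -0.81 in cells with Xbp1 and Tnfrsf17, against -0.67. Hsp90b1, the endoplasmic reticulum chaperone, was at 6680 and 1810 CPM, and Xbp1, the factor that drives secretion in plasma cells, at 1190 and 797 CPM. In T cells 5 of 16 were at least 2-fold lower (7.23% of all genes), with a median of -0.69 against 0.10 over all genes. In macrophages 0 of 16 passed 2-fold (15.4% of all genes higher and 3.59% lower), with a median of -0.11 against 0.25. These plasma cell values came with a smaller share of cells in which Sdc1 and Tnfrsf17 were detected and a larger share with Pax5. The cells of the Runx3 library were also less deep, and the Sdc1 level was higher there, at 170 against 104 CPM. The part of these differences in the result was not tested.

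Lists that respond to handling and to glucocorticoid were also higher in the Runx3 library in most classes. Of 12 immediate early and heat shock genes, 8 were at least 2-fold higher in macrophages of the Runx3 library (15.4% of all genes), 9 in T cells (13.5%) and 10 in plasma cells (14.6%). The fewest were 3 in NK cells (7.51%) and 3 in B cells (10.5%). The macrophage median was 1.43, with log2 ratios of 2.96 for Hspa1b, 2.68 for Hspa1a, 2.44 for Jun, 2.35 for Hsph1, 1.56 for Egr1 and 1.51 for Ier2. Of 5 glucocorticoid genes, 3 were at least 2-fold higher in macrophages (15.4% of all genes) and in cDC (9.33%). It was 4 in neutrophils (13.5%), T cells (13.5%), B cells (10.5%) and plasma cells (14.6%), and 1 in NK cells (7.51%), where 3 had a positive ratio. Fkbp5 was at least 2-fold lower in plasma cells, with -1.09 (16.2% of all genes passed that line). The list had log2 ratios in macrophages of 1.96 for Tsc22d3, 1.58 for Per1 and 2.39 for Zbtb16, the last on 3 and 20 UMIs. Hypoxia and p53 lists had 0 genes past 2-fold in macrophages, and in T cells 2 of 6 and 1 of 6 were at least 2-fold higher (13.5% of all genes). The part of tissue handling in the higher Atf4, Ddit3 and Ddit4 levels was not tested.

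**Figure D4:**
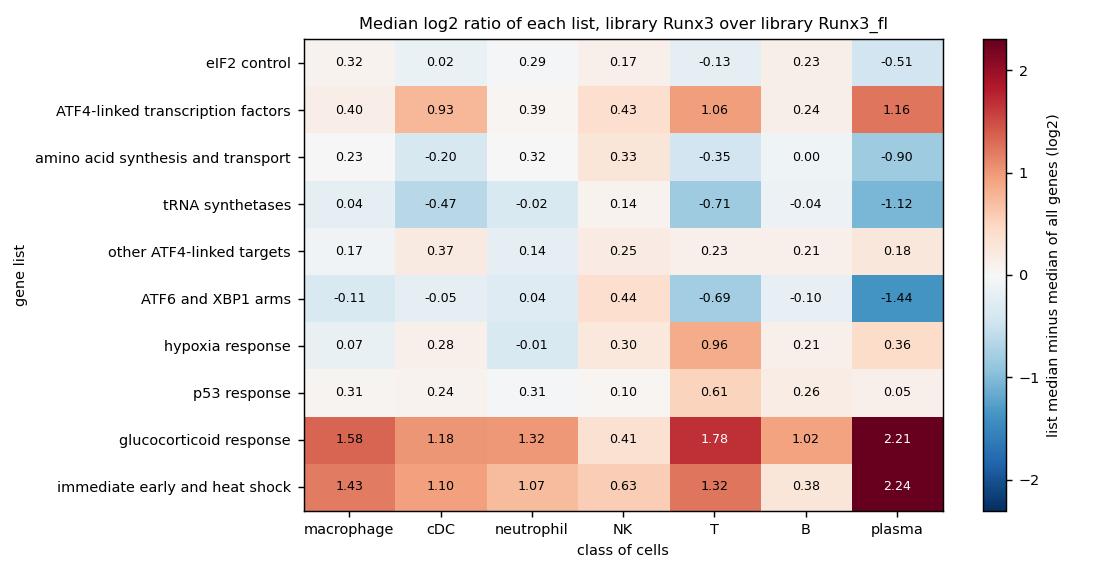
Median log2 ratio, Runx3 over Runx3_fl library, of 10 gene lists (rows) in 7 classes (columns). Numbers are the medians, and colours show the median minus that of all genes compared in the class, red above and blue below. The immediate early and heat shock list is above all genes in every class, and the tRNA synthetase and ATF6 and XBP1 lists are lowest in plasma cells, at -1.12 and -1.44.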

How the data were processed

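Per the labels, libraries were made with the 10x Genomics 3′ kit, version 3. Per the file headers, the deposited counts are UMI counts per gene and cell from cellranger 7.1.0, as whole numbers with no normalization by the authors. The submitters' processing notes name mm10 and Seurat 4. The authors' stated limits were applied: 200 to 6000 genes and at most 15% mitochondrial UMIs, which kept 11885 of 12968 and 8167 of 8953 cells. The upper limit on genes was the only treatment of doublets. Depth before filtering was 146204416 UMIs (Runx3_fl) and 75478164 UMIs (Runx3).

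Gates needed 1 UMI of each marker and were exclusive, with plasma cells taken before B cells. Cells in several gates (10.2% and 20.1%) and in none (30.6% and 32.0%) were left out. Rows with 1 symbol were summed. UMIs were summed per class and library and divided by the class total (CPM, per 1000000), and log2 ratios are of CPM plus 1. Cells are not replicates, so no test was run. The genes, lists and comparisons were chosen with earlier results of these data known. All 8 members were named, with the list genes past 2-fold in macrophages (at most 6 a list, by size) and the 5 genes most like Atf4 and most like the mean of the others. List genes named in T and plasma cells were chosen after their values were seen. Correlations are Pearson's on log2 levels. Of the 32285 identifiers, 32158 were in GENCODE M21 (GRCm38), and promoters are from RefSeq GRCm38.p6. The ratio, interval and thinning steps were tested on simulated data. Alternatives were gates, filters, thinning to 1000 or 4000 UMIs, centring and added CPM. Tools were scipy 1.17.1, matplotlib 3.10.9, numpy 2.4.6 and pandas 2.3.3 under Python 3.11.15.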

Additional observations from a re-analysis of the deposited data

Results flagged for a closer look

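Asns and Sesn2 were picked out because their difference between the libraries pointed opposite ways in different classes, each beyond counting error. The log2 ratio of Asns, Runx3 over Runx3_fl library, was 1.32 in neutrophils, -1.98 in T cells and -1.32 in plasma cells. That of Sesn2 was 0.61 in neutrophils, 1.04 in T cells and -0.46 in plasma cells. The Sesn2 interval in plasma cells spanned 0 with immunoglobulin left out of the totals, at -0.28 (-0.76 to 0.17), and under both narrower plasma gates. In neutrophils with S100a8 and S100a9 UMIs the ratio was 0.23 (-0.19 to 0.69) for Sesn2 and 0.90 (0.07 to 2.16) for Asns, against a median of 0.80 over all genes. With 1 library per group the difference between classes was not tested.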

How the results depend on the processing

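The Atf4 ratio in macrophages was 0.99 on the log2 scale and stayed positive under every alternative run. It was 1.34 as the mean share over cells, 0.82 with cells thinned to 2000 UMIs and 0.74 centred on the median gene. The median of the members kept its direction under every alternative run. The count of members at least 2-fold higher in macrophages, 1 as reported, was 0 with 2 UMIs of each gate marker, with cells in several gates kept, with thinned cells, with centring, with 10 CPM added or with at least 50 UMIs. It was 2 with at most 5% mitochondrial UMIs, with the mean share over cells or, as an alternative chosen after seeing the data, in cells with a Y-linked UMI and no Xist UMI. The log2 spread of Atf4 over classes in the Runx3_fl library was 0.46, and 0.55 thinned. In the Runx3 library it was 0.35, and 0.48 with 2 UMIs of each gate marker, 0.24 with several gates kept, 0.55 as mean share and 0.22 thinned. The target level in Atf4-positive over Atf4-negative macrophages of the Runx3_fl library was 2.73 at 2000 UMIs, 0.817 at 1000 and 1.11 at 4000. For those choices the cause was not tested. The narrower plasma, neutrophil and T cell gates and the totals without immunoglobulin were also chosen after seeing the data. The last moved plasma cells from the lowest to the highest Atf4 level in the Runx3 library and turned the correlation of the other members with Atf4 there from -0.65 to 0.43. No paired analysis was possible because each group had 1 library, and leaving out a replicate was not possible for the same reason. Depth limits Asns, Chac1 and Trib3 in macrophages, where 1 to 5 UMIs were counted per library.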
